A study of Mus musculus with 17 samples.

Results

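Histone modifications of 4 kinds were mapped by chromatin immunoprecipitation sequencing in wild-type mature CD8 thymocytes, and the results below describe how they were combined along the genome. The marks were H3K4me3, H3K27ac, H3K9ac and H3K27me3, with 1 library each. The deposited lists give islands, which are stretches of 200 bp windows called as enriched in reads. Islands of the 4 lists that shared at least 1 bp were merged, and each merged region was assigned to 1 of the 15 possible combinations by the marks whose islands it held. This gave 99725 regions covering 193 Mb, against 164530 regions when all 12 histone lists of the series were merged in the same way.

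H3K4me3 is laid down around active and poised promoters. H3K27ac and H3K9ac are acetylations found at active promoters, and H3K27ac also marks active enhancers, which usually lack H3K4me3. H3K27me3 is deposited by Polycomb repressive complex PRC2 and marks silenced developmental genes, often over broad domains. A single lysine 27 can carry an acetyl or a trimethyl group but not both. H3K4me3 together with H3K27me3 is known as bivalent chromatin.

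The series compared wild-type mice with mice lacking both Tcf1 and Lef1, the transcription factors that share a DNA-binding domain and act throughout T cell development. The deficient mice (genotype Tcf1-/-Lef1-/-) carried deletions made by CD4-Cre, which is switched on within the thymus, so the earliest stages of their thymocytes still had both factors. The CD8 groups, wild type (WT CD8) and deficient (here DKO CD8), were mature thymocytes sorted as TCRbeta high, CD69– and CD24–. One more group, WT CD4, came from the same tissue and genotype, but its phenotype label reads CD8+ although its titles and source name CD4 T cells. Tcf1 binding was mapped in wild-type splenic CD8 T cells (TCRbeta high), with cells lacking Tcf1 through CD4-Cre as the control. No animal age is given in the labels. The identity of the sorted cells was not checked against marker genes, because regions are given by mm9 position only.

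The WT CD8 lists held 42013 islands of H3K4me3, 56985 of H3K27ac, 9860 of H3K9ac and 34756 of H3K27me3. Island reads came to 952636 for H3K4me3, 2056894 for H3K27ac, 248234 for H3K9ac and 2569785 for H3K27me3. The marks covered 1.47%, 3.23%, 0.524% and 4.69% of the 2581 Mb spanned by the islands, in the same order. H3K9ac was thus the shortest list in WT CD8, at 13.5 Mb, whereas the WT CD4 list of H3K9ac covered 45.6 Mb. Each mark and group has 1 library, so differences between groups stand without replicates and no test was made. The intervals below are exact Clopper-Pearson 95% intervals over regions and cover counting error only.

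Most regions carried a single mark. Of the 99725 regions, 71307 (71.5%, interval 71.2% to 71.8%) held 1 mark, 17952 held 2, 9674 held 3 and 792 (0.794%) held all 4. H3K27ac alone was the most frequent combination with 29520 regions, followed by H3K4me3 alone with 22965 and H3K27me3 alone with 15205. Next came 9748 regions that joined H3K27ac with H3K27me3 and 6111 that joined H3K4me3, H3K27ac and H3K27me3. The combination that textbooks assign to active promoters, H3K4me3 with H3K27ac and H3K9ac and no H3K27me3, had 3096 regions, and the bivalent pair with no acetylation had 1927. H3K4me3 with H3K27ac and no other mark made up 4516 regions. The other 6 multi-mark combinations together with H3K9ac alone all involved the short H3K9ac list, and the rarest was H3K4me3 with H3K9ac and H3K27me3 (128 regions).

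**Figure D1:**
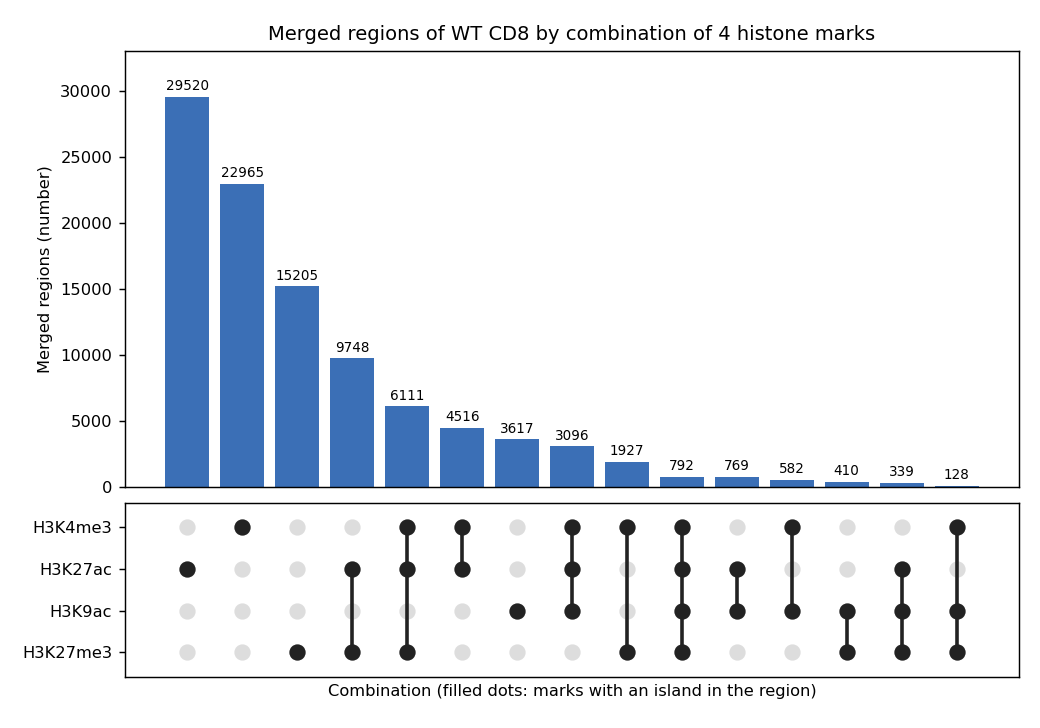
Number of merged WT CD8 regions (bars, vertical axis) in each of the 15 combinations, with filled dots below each bar for the marks present. The bars fall from 29520 regions for H3K27ac alone to 128 for H3K4me3 with H3K9ac and H3K27me3, and the bars of 9748 and 6111 regions both pair H3K27ac with H3K27me3.

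Counted by sequence, the order was different, and H3K27me3 with its broad islands came first. When each covered 200 bp window was given its own marks, H3K27me3 alone took 42.2% of the covered sequence and H3K27ac alone 20.5%. H3K27ac with H3K27me3 took 12.9%, and H3K4me3 with H3K27ac and H3K9ac 1.33%. The median width was 600 bp for regions of H3K4me3 alone, 1000 bp for H3K27ac alone and 2600 bp for H3K27me3 alone. Regions with all 4 marks were the widest by median, at 5400 bp, and those with H3K4me3, H3K27ac and H3K9ac had a median of 1800 bp.

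Regions of few reads carried a single mark more often than regions of many reads. Among regions with fewer than 15 H3K4me3 reads, 80.8% held no other mark (n = 17318). The share alone was 11.5% in regions with at least 30 and fewer than 50 H3K4me3 reads (n = 4486), 2.59% in those with at least 50 and fewer than 100 (n = 2508) and 3.11% at 100 or more (n = 515). H3K27ac stood alone at 83.5% below 15 reads and at 6.95% at 100 reads or more. For H3K27me3 the share was 61% from 15 to below 20 reads, 65.4% from 20 to below 30 and 18.4% at 100 or more, and for H3K9ac it was 49.3% below 15, 49.6% from 15 to below 20 and 1.85% at 100 or more. Strong H3K4me3 was nearly always accompanied by another mark: 95.6% of the regions with at least 50 and fewer than 100 H3K4me3 reads also held H3K27ac, and 58.7% held H3K27me3. Reads were summed over all islands of the mark in a region, and regions of more reads were wider. For H3K27ac alone the median width was 400 bp below 15 reads and 4400 bp at 100 or more. A wider region can meet another list more easily, and the part of width in these shares was not tested. Regions of few reads are also the ones closest to the authors' limit for an island. The smallest deposited island held 9 reads for H3K4me3, 10 for H3K27ac and H3K9ac and 15 for H3K27me3. At the limit set by the overlap rule, 1183 of the 28418 multi-mark regions (4.16%) were held together by a single shared window of 200 bp, and 490 pairs of neighbouring regions touched without sharing a base.

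The 3096 regions of H3K4me3 with H3K27ac and H3K9ac held more reads than single-mark regions and were mostly shared with the other groups. Their median counts were 36 H3K4me3 reads, 43 H3K27ac reads and 24 H3K9ac reads, against 14, 18 and 18 where each mark stood alone. In 97.8% of them (interval 97.2% to 98.3%) all 3 marks covered at least 1 common window, so the marks were stacked rather than placed end to end. They lay unevenly over the genome, with 2.37 regions per Mb on chromosome 11 and 0.907 on chromosome 3. The coefficient of variation of this density over the autosomes was 28.3%, against 10% for all regions. Such coefficients include counting error, which is larger for smaller sets. Chromosome X, which makes up 6.34% of the span and holds 4.96% of all regions, held 0.646% of them. The share was also below 1% for H3K9ac alone (0.664%), H3K4me3 with H3K9ac (0.687%) and H3K9ac with H3K27me3 (0.488%). Other combinations with H3K9ac were higher. The share was 1.56% for H3K4me3 with H3K9ac and H3K27me3, and 1.95% for H3K27ac with H3K9ac. It was 3.24% for H3K27ac with H3K9ac and H3K27me3, and 6.19% for all 4 marks.

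Examples fixed by rule show the range of this combination. The widest, which also had the most reads, lay at chr1:90122001-90167200 (mm9), 45.2 kb with 511 H3K4me3, 323 H3K27ac and 1319 H3K9ac reads. Its marks covered unequal lengths: H3K9ac covered all 45200 bp and H3K27ac 11400 bp. The region strongest in all its marks at once was a single window, chr1:45008001-45008200, with 59, 45 and 20 reads in the same order. Both regions held all 4 marks in each of the other groups.

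The other combinations of active marks fell between this set and the single marks. H3K4me3 with H3K27ac (4516 regions) had medians of 20 H3K4me3 and 26 H3K27ac reads, and H3K27ac with H3K9ac (769 regions) had 31 H3K27ac and 19 H3K9ac reads. The 582 regions of H3K4me3 with H3K9ac and no H3K27ac had medians of 21 and 19 reads. H3K4me3 islands tended to lie inside the acetylated stretch rather than around it: in H3K4me3 with H3K27ac, 55.9% of the H3K4me3 islands lay wholly inside an H3K27ac island, and 26.4% of the H3K27ac islands lay wholly inside an H3K4me3 island.

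H3K27me3 without acetylation formed the Polycomb side of the map. The 15205 regions of H3K27me3 alone had a median of 40 reads, and those of H3K4me3 with H3K27me3 had medians of 15 H3K4me3 and 50 H3K27me3 reads. In this bivalent pair H3K4me3 was a narrow feature within a broad domain: it covered a median of 22.2% of the region, and 77.7% of its islands lay wholly inside an H3K27me3 island. The widest bivalent region, chr15:102792001-102832200, spanned 40.2 kb with 787 H3K27me3 reads and 18 H3K4me3 reads over 1000 bp. In DKO CD8 it held H3K27me3 only, and in WT CD4 all 4 marks. When the H3K27ac list was left out, an alternative added after seeing the data, 8036 regions held H3K4me3 and H3K27me3 without H3K9ac, in place of 1927. The bivalent region strongest in both marks, chr6:145881201-145881600, had 56 H3K4me3 and 107 H3K27me3 reads in 400 bp and held H3K27me3 and no other mark in both other groups.

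Regions holding H3K27ac and H3K27me3 together were frequent in WT CD8. They numbered 16990 over the 4 combinations concerned, which is 31% of the regions with H3K27ac and 49% of those with H3K27me3. DKO CD8 had 3692 such regions (12.6% and 15.5%), and WT CD4 had 3381 (14% and 10%). By sequence, 42.7% of the H3K27ac islands of WT CD8 lay inside H3K27me3 islands, which cover 4.69% of the span. In DKO CD8 the overlap was 9.91% with H3K27me3 over 3.72% of the span, and in WT CD4 it was 9.9% with H3K27me3 over 5.5%. H3K27me3 thus covered more sequence in WT CD4 than in WT CD8 while overlapping H3K27ac less.

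H3K4me3 was also highest in WT CD8, with 34.8% of its sequence inside H3K27me3, against 11.8% for DKO CD8 and 18.5% for WT CD4. H3K4me3 inside H3K27ac varied less, at 44.3%, 37% and 39.3%. H3K9ac inside H3K27me3 also differed less between groups, at 16.6%, 11.3% and 15.6%. When each mark was trimmed to the same covered length in the 3 groups, keeping the densest islands, H3K27ac inside H3K27me3 stood at 49%, 9.91% and 7.16%. That comparison was added after the data had been seen.

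**Figure D2:**
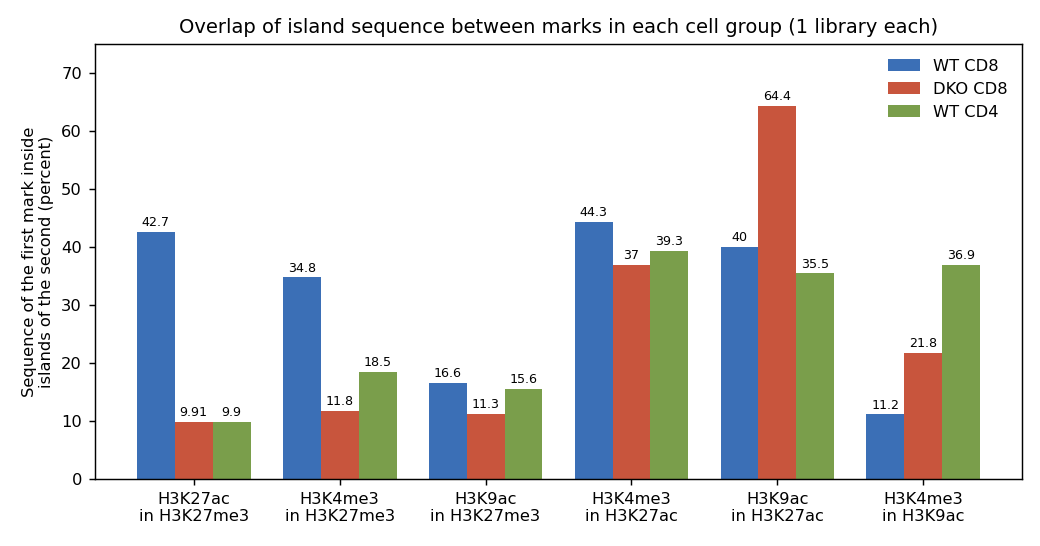
Percent of the island sequence of a first mark that lies inside islands of a second mark (vertical axis), for 6 pairs of marks, with 1 bar per cell group and 1 library behind each mark and group. WT CD8 stands above both other groups for H3K27ac in H3K27me3 (42.7% against 9.91% and 9.9%) and for H3K4me3 in H3K27me3, while the groups lie closer for H3K4me3 in H3K27ac.

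Other measures of these regions also differed between groups. In the 9748 regions of H3K27ac with H3K27me3, the reads per kb of these marks ranked together across regions, with a Spearman coefficient of 0.40, and in the 6111 regions that also held H3K4me3 it was 0.45. In DKO CD8 the coefficients were 0.09 (n = 2380) and -0.11 (n = 707), and in WT CD4 0.06 (n = 1140) and -0.13 (n = 552). These are descriptions across regions of 1 pair of libraries, whose points share region width and library depth. In WT CD8, 90.8% of the H3K27ac sequence of the pair lay within H3K27me3 islands, and 94.2% in the trio with H3K4me3. Overlap of islands defines these regions, so high shares are partly given in advance. The share was 88.2% for H3K4me3 in the bivalent pair and 79.7% for H3K9ac in H3K9ac with H3K27me3. It was not measured in the other groups.

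The regions of both marks were also spread evenly over chromosomes. The density of H3K27ac with H3K27me3 varied by 8.63% over the autosomes, close to the 6.6% of H3K27ac alone. It was below the 28.6% of H3K27ac with H3K9ac, a set of only 769 regions in which counting error weighs more. Chromosome X held 9% of these regions and 5.6% of those with H3K27ac alone. Over all 16990 regions with H3K27ac and H3K27me3, the variation was 7.4% and the share on chromosome X 8.73%. The matching regions of DKO CD8 varied by 31.3% with 3.03% on chromosome X, and those of WT CD4 by 28.1% with 1.04%. What part the H3K27ac or H3K27me3 library of WT CD8 has in these values was not tested.

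Examples were named by the same rule. The H3K27ac with H3K27me3 region strongest in both marks, chr12:94814601-94815800, held 205 H3K27ac and 240 H3K27me3 reads in 1200 bp and had no island of any mark in either other group. Its counterpart with H3K4me3, chr3:59848801-59850200, held 365 H3K4me3, 455 H3K27ac and 599 H3K27me3 reads in 1400 bp and had the same 3 marks in DKO CD8. In WT CD4 it had H3K4me3, H3K9ac and H3K27me3, without H3K27ac. The widest region of all, chr8:126059201-126154200, spanned 95 kb with 3029 H3K4me3, 5600 H3K27ac and 13797 H3K27me3 reads. It carried the same combination in DKO CD8 and all 4 marks in WT CD4.

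Whether a combination was seen again in the other groups depended strongly on which marks it held. DKO CD8 had the same combination at 13.7% of all WT CD8 regions and no island of any mark at 68%. For WT CD4 the shares were 13.4% and 63.4%. Regions of H3K4me3 with H3K27ac and H3K9ac stood far above this: 65.2% (interval 63.5% to 66.9%) had the same combination in DKO CD8 and 90.2% (89.1% to 91.2%) in WT CD4. Their single marks were found in DKO CD8 at 91.9% for H3K4me3, 97.5% for H3K27ac and 76.2% for H3K9ac, where the shares over all WT CD8 regions with the mark were 19.9%, 22% and 29.2%. In WT CD4 the values were 95.6%, 97.4% and 96% against 21.1%, 22.8% and 47%. The lower H3K9ac share in DKO CD8 stands beside a shorter H3K9ac list, 11.5 Mb against 45.6 Mb in WT CD4, and the part of list length in it was not tested.

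H3K27ac alone was shared less often. Of the 29520 regions of H3K27ac alone, 16.9% (interval 16.5% to 17.4%) had H3K27ac in DKO CD8 and 18.3% (17.8% to 18.7%) in WT CD4. Both were below the 22% and 22.8% over all regions with H3K27ac. They were slightly above the 16.3% and 16.5% over all WT CD8 regions, with or without H3K27ac. No island of any mark was present in either group at 66.6% of H3K27ac alone, against 57.2% of all regions and 73.6% of H3K4me3 alone. H3K27ac with H3K9ac was shared far more, with H3K27ac at 68.4% in DKO CD8 and 67.9% in WT CD4. H3K9ac alone was rarely found again: 1.3% of its 3617 regions had H3K9ac in DKO CD8, where 5.4% of all WT CD8 regions did, and 10.6% in WT CD4, where 15% did. H3K4me3 alone was found again at 5.73% and 8.06%, against 11.3% and 12.7% of all WT CD8 regions. Over the WT CD8 regions with the mark, the shares were 29.2% and 47% for H3K9ac and 19.9% and 21.1% for H3K4me3.

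**Figure D3:**
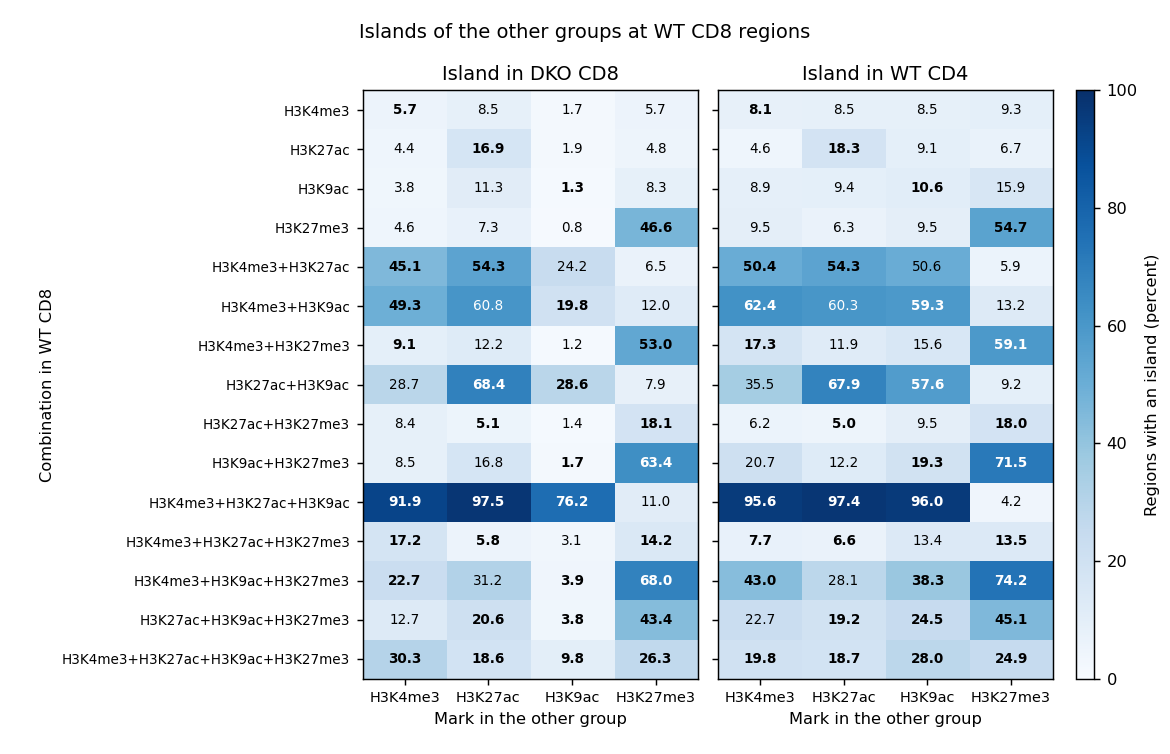
Percent of WT CD8 regions of each combination (rows) that touch an island of each mark (columns) in DKO CD8 (left) and WT CD4 (right), shaded from 0 to 100. Bold values are marks the WT CD8 combination itself holds, and the darkest row is H3K4me3 with H3K27ac and H3K9ac, at 76.2% to 97.5% for its own marks.

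H3K27me3 was found again mainly where it stood without H3K27ac. The shares over all WT CD8 regions with H3K27me3 were 33% in DKO CD8 and 36.8% in WT CD4. For H3K27me3 alone they were 46.6% and 54.7%, for the bivalent pair 53% and 59.1%, and for H3K9ac with H3K27me3 63.4% and 71.5%. Where H3K27ac was added, the shares were 18.1% and 18%, and with H3K4me3 as well 14.2% and 13.5%. The 339 regions of H3K27ac with H3K9ac and H3K27me3 stood higher, at 43.4% and 45.1%. In bivalent regions H3K4me3 itself was found at 9.13% in DKO CD8 and 17.3% in WT CD4. Over all WT CD8 regions with H3K4me3 the shares were 19.9% and 21.1%, and for H3K4me3 alone 5.73% and 8.06%. H3K27me3 was the sole mark at 38.4% of the bivalent regions in DKO CD8 and 33.1% in WT CD4.

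Regions of H3K27ac with H3K27me3 seldom had H3K27ac elsewhere. No island of any mark was found at 74.3% of them in DKO CD8 and 74.8% in WT CD4, against 68% and 63.4% of all regions and 84.6% and 78.4% of H3K4me3 alone. H3K27ac was found at 5.14% and 5.04%, which is below the 16.3% and 16.5% over all WT CD8 regions, including those without H3K27ac. In the trio with H3K4me3, H3K4me3 was more frequent in DKO CD8 (17.2%, interval 16.3% to 18.2%) than in WT CD4 (7.69%, 7.04% to 8.39%). Regions of all 4 marks had the same direction over all reads, at 30.3% against 19.8%. In the other 6 combinations with H3K4me3 the WT CD4 share was the higher one.

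Similar reads left wide gaps between combinations in the middle of the range. Among regions with at least 30 and fewer than 50 H3K27ac reads, H3K27ac was found in DKO CD8 at 98.2% of H3K4me3 with H3K27ac and H3K9ac (n = 997), 61.6% of H3K4me3 with H3K27ac (n = 1293), 24.8% of H3K27ac alone (n = 4626) and 3% of H3K27ac with H3K27me3 (n = 3539). In WT CD4 the values were 98.1%, 61.6%, 26.1% and 2.77%. The order was not the same in every bin. Below 15 reads, H3K27ac with H3K27me3 stood at 10.4% and 8.99%, and H3K27ac alone at 7.43% and 8.43%. At 100 reads or more, H3K27ac alone reached 64.5% and 67.9%, above the 51.2% and 53.8% of H3K4me3 with H3K27ac, while H3K27ac with H3K27me3 had 6.15% and 7.69%. Regions of H3K27ac with H3K27me3 are wider than H3K27ac alone at equal reads, with medians of 2400 bp against 1800 bp in the bin from 30 reads. Below 15 reads the medians were 2800 bp and 400 bp, and the part of width in the order there was not tested. By 200 bp windows over all reads, H3K27ac was found in DKO CD8 at 2.17% of H3K27ac with H3K27me3 and 23.1% of H3K27ac alone. In WT CD4 these window shares were 2.86% and 25.9%. Over all windows of the span, H3K27ac was found at 2.29% in DKO CD8 and 2.49% in WT CD4. The window shares of H3K27ac with H3K27me3 were thus close to those of the whole span.

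**Figure D4:**
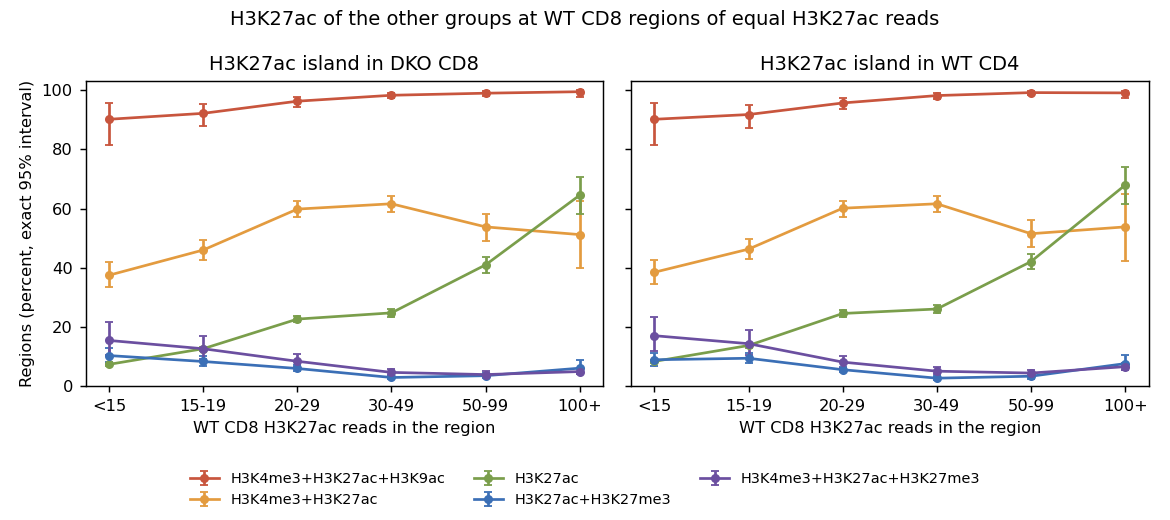
Percent of WT CD8 regions with an H3K27ac island in DKO CD8 (left) and WT CD4 (right) by the number of H3K27ac reads in WT CD8 (horizontal axis), for 5 combinations, with exact 95% intervals. The line for H3K4me3 with H3K27ac and H3K9ac is at 90.1% or above and both lines with H3K27me3 are at 17.1% or below in every bin, while H3K27ac alone climbs to 64.5% and 67.9% and passes H3K4me3 with H3K27ac in the last bin.

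H3K27me3 was compared in the same way. Among regions with 100 or more H3K27me3 reads, a bin with no upper limit, H3K27me3 was found in DKO CD8 at 92.3% of H3K27me3 alone (n = 1124) and 90% of the bivalent pair (n = 351). It was found at 38.9% of H3K27ac with H3K27me3 (n = 1353) and 16.4% of the trio with H3K4me3 (n = 2658). WT CD4 gave 92.4%, 90.9%, 37.8% and 16%. From 30 to below 50 reads the DKO CD8 shares were 37.6%, 34.5%, 11.6% and 11.8% in the same order, so the pair and the trio with H3K27ac were level there. In DKO CD8 the bivalent pair was above H3K27me3 alone over all reads but below it in both of these bins. The excess of DKO CD8 for H3K4me3 in the trio was also present in a bin of reads, with 23.6% against 6.79% in WT CD4 among regions with at least 50 and fewer than 100 H3K4me3 reads (n = 1251). Regions of all 4 marks had 33% against 16.5% in that bin (n = 200), but not the same direction in every bin. Below 15 H3K4me3 reads they had 14.9% in DKO CD8 and 22.4% in WT CD4 (n = 67). From 15 to below 20 reads the values were 15.3% and 21.2% (n = 85).

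Tcf1 peaks of splenic CD8 cells were concentrated in the combinations of active marks. Over all regions 4.62% held a peak. H3K4me3 with H3K27ac and H3K9ac reached 46.5% (interval 44.7% to 48.3%), with 247 peaks per Mb where the whole span had 3.02. H3K27ac with H3K9ac reached 28.1%, H3K4me3 with H3K27ac 18.7% and H3K4me3 with H3K9ac 12.2%. H3K27ac alone stood at 4.67%, close to the share of all regions, and H3K4me3 alone at 1.45%. Per Mb, H3K27ac alone held 46.7 peaks and H3K4me3 alone 21, against 26.1 over all regions, so both were above the whole span. Because its regions are many, H3K27ac alone still held 1506 of the 7807 peaks (19.3%), second to the 1639 (21%) in H3K4me3 with H3K27ac and H3K9ac, and its peaks had the highest median score, 91.1 against 77.1. Peaks outside every region numbered 2757 (35.3%), and 22 peaks that touched regions of more than 1 combination were each counted in 1 of them.

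H3K27ac with H3K27me3 held few Tcf1 peaks for its length. The share was 0.718% in H3K27ac with H3K27me3 (interval 0.56% to 0.906%) and 0.851% with H3K4me3 as well (0.636% to 1.11%), which is 2.54 and 2.09 peaks per Mb, below the density of the whole span. H3K27me3 alone had 0.566% and 1.87 peaks per Mb, and the bivalent pair 1.61% and 3.91. The combinations of H3K27me3 with H3K9ac were not uniformly low: density was 2.11 in the pair, 11.6 with H3K4me3, 9.63 with H3K27ac and 7.02 with all 4 marks. In the other groups the regions of H3K27ac with H3K27me3 differed from those of WT CD8: 15.7% of them held a Tcf1 peak in DKO CD8 and 14.5% in WT CD4, against 1.01% of the 16990 regions in WT CD8. Their median width was 4800 bp in DKO CD8 and 5800 bp in WT CD4 against 3200 bp, and the part of width was not tested. The Tcf1 peaks come from 1 spleen experiment, so they compare regions of the thymocyte map with binding in another organ.

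**Figure D5:**
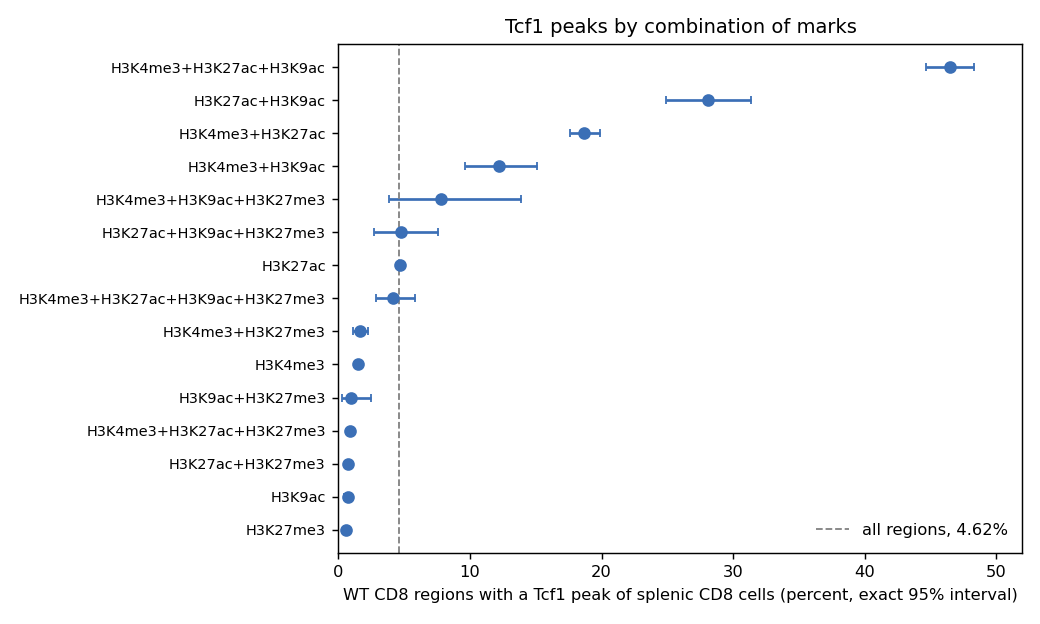
Percent of WT CD8 regions with at least 1 Tcf1 peak of splenic CD8 cells (horizontal axis) for each combination, with exact 95% intervals and a dashed line at the 4.62% of all regions. Combinations of active marks without H3K27me3 lie highest, up to 46.5%, and 6 of the 8 combinations with H3K27me3 lie below the line.

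Active multi-mark regions with H3K9ac also lay nearest to Tcf1 peaks. The median distance from a region to the nearest Tcf1 peak was 3.76 kb for H3K4me3 with H3K27ac and H3K9ac and 22 kb for H3K27ac with H3K9ac. It was 47.9 kb for H3K4me3 with H3K9ac and 79.9 kb for H3K4me3 with H3K27ac, although the latter held peaks more often. Single marks lay at 86.1 kb for H3K9ac, 140 kb for H3K27me3, 165 kb for H3K4me3 and 170 kb for H3K27ac. The largest medians of the 15 combinations were 403 kb and 433 kb, for H3K27ac with H3K27me3 without and with H3K4me3. At similar H3K27ac reads (at least 30 and fewer than 50), 40.3% of H3K4me3 with H3K27ac and H3K9ac held a peak, 8.95% of H3K27ac alone and 0.565% of H3K27ac with H3K27me3. The order was not the same in every bin. Below 15 reads, H3K27ac alone stood at 0.795% and H3K27ac with H3K27me3 at 1.09%. At 100 reads or more, H3K27ac alone reached 46.2%, above the 23.8% of H3K4me3 with H3K27ac.

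The regions with the highest-scoring Tcf1 peak in a combination were singled out after their values were seen. The region chr6:17014601-17017200 (H3K4me3 with H3K27ac and H3K9ac) held a peak with a score of 470.28 and had 17, 75 and 30 reads, and it had the same combination in both other groups. The region chr4:57847401-57847800 (H3K27ac alone) touched a peak scored 466.93 and had 13 H3K27ac reads. It too had H3K27ac in both groups.

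The 792 regions with all 4 marks stood closer to the trio of H3K4me3, H3K27ac and H3K27me3 than to the active trio in Tcf1 peaks, in sharing with the other groups and in their spread over chromosomes. Their medians were 36 H3K4me3, 70 H3K27ac, 22 H3K9ac and 108 H3K27me3 reads. A share of 4.17% (interval 2.89% to 5.8%) held a Tcf1 peak, and 51.8% and 55.4% had no island in DKO CD8 and WT CD4, where the trio with H3K27me3 had 70.9% and 75% and the active trio 1.97% and 1.78%. The 4 marks covered a common window in 78.7% of them. Chromosome X held 6.19%, and the density varied by 15.7% over the autosomes, a value that includes the counting error of a small set. The widest, chr7:67002201-67050400, spanned 48.2 kb with 3097, 3054, 2420 and 4348 reads of H3K4me3, H3K27ac, H3K9ac and H3K27me3 and had H3K4me3 only in DKO CD8 and H3K9ac only in WT CD4.

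H3K9ac combined with H3K27me3 in a different way. The 410 regions of this pair had medians of 18 H3K9ac and 51 H3K27me3 reads, and H3K9ac covered a median of 35.7% of the region. Adding H3K4me3 gave 128 regions, of which 53.1% (interval 44.1% to 62%) had a window under all 3 marks, so in many of them the marks were neighbours within a domain. Adding H3K27ac gave 339 regions, with a common window in 77.3%. Chromosome X held 2 of the 410 regions of the pair (0.488%), against 9% of H3K27ac with H3K27me3. This low share was not particular to the pair, since H3K9ac alone had 0.664%.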

How the data were processed

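Chromatin immunoprecipitation libraries of 17 samples were described, of which the 12 histone island lists and 1 Tcf1 peak list were used, while the input libraries and the Tcf1-deficient control were not analysed here. The deposited island lists give chromosome, start, end and a read count per island. The deposited Tcf1 list gives a score per peak, whose scale is not stated in the sources used here; it was used only to rank peaks. Tools listed in the submitters' processing notes, with no role given, were SICER 1.1, MACS 1.4.2, Bowtie2 2.2.5 and FastQC, and the build was mm9. Some samples were sequenced again with longer reads, per the labels' protocols, and which ones is not stated there.

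Islands were merged and counted with Python 3.11.15, numpy 2.4.6, pandas 2.3.3 and SciPy 1.17.1. Regions and their combinations equalled those of bedtools 2.31.1 for 99725 of 99725 regions, and 5000 of 5000 simulated regions were recovered. For Tcf1 only the total of regions with a peak was compared, and it was 4608 by both. An overlap needed 1 bp. Named regions are, per combination, the widest, the one with the most reads, and the one whose lowest density percentile over its marks is highest among regions up to 10 kb with at least 20 reads of each mark, leaving out any above 10 times the 99th percentile of density. Some of these are described. Combinations and comparisons were chosen with earlier results of these data known. Alternatives changed the overlap, island reads, covered length, merging distance, chromosomes, high-signal regions, the unit counted and the marks used.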

Additional observations from a re-analysis of the deposited data

How the results depend on the processing

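Of 234 recomputed values, 138 stayed within the interval of the value given above or, for counts and overlaps, within 1.5 times of it, and 96 moved. The share of regions with 1 mark, 71.5%, was 72.4% when joined islands had to share 50% of the shorter, 65.1% with islands above their list's median reads, 80.7% at equal covered length, 68.3% when islands up to 1 kb apart were merged, 72% on autosomes, 72.3% without H3K9ac and 75% by 200 bp windows. Further alternatives were added after the data were seen: leaving out H3K27ac gave 81.1%, and keeping only islands met by the same mark in DKO CD8 or WT CD4 gave 75.5%. With islands above the median, at equal length and with supported islands, in this order, H3K4me3 with H3K27me3 alone counted 613, 460 and 455 regions, H3K27ac with H3K27me3 but no H3K4me3 (10087 as deposited) 4728, 1360 and 638, and all 4 marks 346, 81 and 59. H3K4me3 with H3K27ac and H3K9ac counted 1677 and 1350 in the first 2 and 2972 with supported islands. Its Tcf1 share was 52.4% above the median.

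For H3K27ac alone the Tcf1 share was 9.67% above the median, 3.69% at equal length, 4.92% on autosomes and 21.2% with supported islands. Its H3K27ac share in DKO CD8 was 25.1%, 12.1% and 17.6% in the first 3 of these and 15.4% with 1 kb merging, and in WT CD4 26.1%, 12.9%, 19% and 16.5%. Above the median, H3K27ac inside H3K27me3 was 6.6% in DKO CD8 and 4.22% in WT CD4. Leaving out the 18 high-signal regions moved none of the 24 values recomputed. No paired analysis was possible because the labels carry no replicate numbers. Depth limits what can be called an island: the smallest deposited islands held 9 to 15 reads.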

Other observations

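Islands met by the same mark in DKO CD8 or WT CD4 made up 23.8% of the H3K4me3 list of WT CD8, 23.9% of H3K27ac, 47.1% of H3K9ac and 41% of H3K27me3. Built from these islands alone, the map held 2972 regions of H3K4me3 with H3K27ac and H3K9ac (3096 as deposited) and 12764 of H3K27me3 alone (15205). The rebuilt map held 615 of H3K27ac with H3K27me3 (9748 as deposited) and 162 of H3K4me3 with H3K27ac and H3K27me3 (6111). These islands were chosen by overlap with the other groups, so the counts largely repeat the shares given above and are no separate result. Without the H3K27ac list, 8036 regions held H3K4me3 and H3K27me3 with no H3K9ac, and 3685 held H3K4me3 and H3K9ac with no H3K27me3.

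The H3K27me3 region with the most reads, chr9:2999801-3039400, held 111889 reads over 39.6 kb and had no island of any mark in DKO CD8 or WT CD4. The H3K27ac with H3K27me3 region with the most reads, chr2:98502201-98507600, held 7411 H3K27ac and 15262 H3K27me3 reads in 5.4 kb. The 4-mark region with the most reads, chr17:39979401-39986600, held 3276 H3K4me3, 3081 H3K27ac, 2767 H3K9ac and 8246 H3K27me3 reads in 7.2 kb. These 3 regions lie among the 18 whose density passed 10 times the 99th percentile for at least 1 mark.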
